A study of Homo sapiens with 6 samples.

Results

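MHC class I presentation is described here through 9 genes, HLA-B, HLA-C, HLA-E, HLA-F, B2M, TAP1, TAP2, TAPBP and NLRC5, taken by symbol from a deposited table of 20356 gene IDs. All 9 were found, and where a symbol had more than 1 ID the one that GENCODE also calls by that symbol was used. The libraries came from H1975, a human lung adenocarcinoma cell line with mutant EGFR. The 3 H1975 OR libraries were from the osimertinib-resistant derivative, cultured with 1 µM osimertinib, an inhibitor of mutant EGFR. The 3 parental H1975 libraries were from cells kept under normal conditions, and RPMI-1640 with serum was the medium for both. The series calls them biological replicates. Whether they came from separate cultures, and whether H1975 OR is a clone or a pool, is not stated, so p-values measure only the spread between these libraries. Resistance and the presence of drug cannot be told apart in this design.

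A class I molecule is a heavy chain paired with the small protein beta-2 microglobulin, with a short peptide in its groove. Peptides are cut by the proteasome in the cytosol, carried into the endoplasmic reticulum by the TAP transporter and loaded with the help of tapasin, and the complex then moves to the surface to be read by CD8+ T cells. Transcription of most of these genes is driven by a shared set of promoter boxes that bind RFX, CREB/ATF and NF-Y factors and the coactivator NLRC5, and is raised further by interferon and NF-kB.

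Markers of the labelled cell type and of other cells moved with the groups. Levels are in FPKM, which scales the sequenced fragments of a gene to its transcript length and to the library. Levels of different genes can then be compared, but only roughly for the class I heavy chains, whose sequences are similar. The epithelial markers summed to 915 to 992 FPKM in H1975 OR and to 2907 to 3426 FPKM in parental cells, and the 6 of 7 that could be tested were all lower in H1975 OR. EPCAM was at 0.807 to 1.28 FPKM in H1975 OR, against 193 to 221 FPKM in parental cells, and NKX2-1, a lung lineage factor, was listed at 0 in each resistant library, while KRT8 stayed at 366 FPKM or more in every library. The 8 leukocyte markers summed to 24.9 to 31.2 FPKM in H1975 OR and to 8.24 to 10.4 FPKM in parental cells, nearly all of it from CD14 in the resistant libraries. The pan-leukocyte gene PTPRC stayed at or under 0.0404 FPKM and CD3E was listed at 0 in every library. The 6 fibroblast markers summed to 17.5 to 21.3 FPKM in H1975 OR and to 2.25 to 2.67 FPKM in parental cells, of which COL1A1 and PDGFRB made up most in H1975 OR, with DCN listed at 0 in every library. The 3 endothelial markers measured summed to 1.08 to 1.41 FPKM in H1975 OR and to 0.620 to 0.762 FPKM in parental cells. The part of such markers in the class I values was not tested. HLA-DRA, a class II gene often induced along with class I, was at or under 0.0338 FPKM in H1975 OR, against 4.84 to 6.10 FPKM in parental cells.

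All 9 genes were higher in H1975 OR than in parental cells, by 0.42 to 1.80 on the log2(FPKM + 1) scale, with a median of 1.06. Each gene passed an FDR of 0.05 in limma. Of the 12107 tested genes, those averaging 1 FPKM or more in H1975 OR or in parental cells, 78.0% passed in either direction, 39.9% as higher and 38.1% as lower in H1975 OR. For each of the 9, the lowest H1975 OR library lay above the highest parental library, which held for 40.8% of tested genes, while 39.0% were separated the other way. The median change over all tested genes was 0.01. HLA-B, HLA-F, NLRC5, TAP1 and HLA-C rose by at least 1 on this scale, as did 9.95% of tested genes, and no member fell by as much, as 9.39% of tested genes did. With the deposited coverage in place of FPKM, HLA-B and TAP1 alone among the 9 reached 1. In bulk RNA, more cells expressing a gene and more RNA per cell cannot be told apart.

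**Figure D1:**
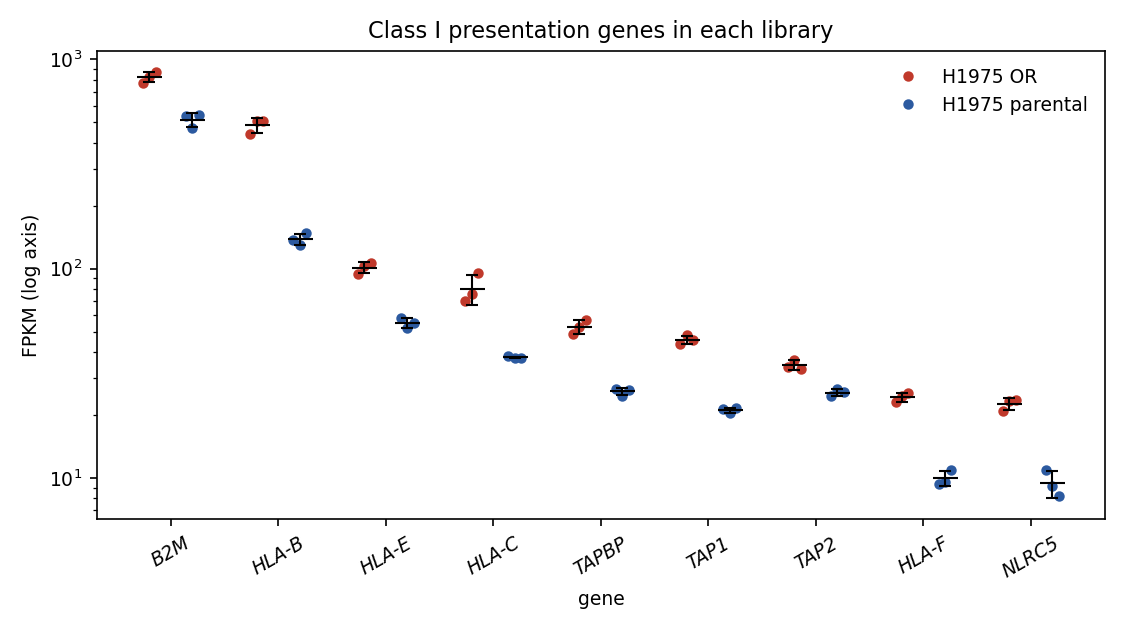
FPKM of each class I presentation gene in every library on a log axis, H1975 OR in red and parental H1975 in blue. Black bars give the mean and SD of 3 libraries, and in no gene do the groups overlap.

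The heavy chain genes were led by HLA-B, a classical heavy chain that presents peptides to CD8+ T cells (chr6:31321649-31324965, GRCh37). HLA-B was at 441, 508 and 508 FPKM in H1975 OR replicates 1 to 3, against 137, 130 and 147 FPKM in parental replicates 1 to 3. The mean was 486 ± 38.9 FPKM in H1975 OR and 138 ± 8.53 FPKM in parental cells (SD, n = 3 each), 3.52-fold higher in H1975 OR. Every resistant library stood far above every parental one, and the log2 change of 1.80 ± 0.0757 (SE, limma adjusted p = 3.6e-10) was the largest of the 9. HLA-C, the other classical heavy chain here and a main ligand of killer immunoglobulin-like receptors (chr6:31236526-31239907), was at 70.0, 75.5 and 95.3 FPKM in H1975 OR, against 38.1, 37.5 and 37.5 FPKM in parental cells. Its parental libraries were nearly equal, while resistant replicate 3 stood above the others. The log2 change of HLA-C was 1.06 ± 0.0977 (SE, limma adjusted p = 1.6e-06), and it was 0.93 without resistant replicate 3.

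HLA-E encodes a heavy chain that shows leader peptides of other class I proteins to natural killer cells (chr6:30457244-30461982). It was at 94.2, 103 and 106 FPKM in H1975 OR, against 58.3, 52.0 and 55.3 FPKM in parental cells. The groups were well apart, with a log2 change of 0.86 ± 0.0686 (SE, limma adjusted p = 1.5e-07). HLA-F, a heavy chain that can reach the surface without peptide (chr6:29690552-29706305), was at 23.0, 24.6 and 25.4 FPKM in H1975 OR, against 9.41, 9.61 and 10.9 FPKM in parental cells. It was the lowest heavy chain of the 4 in both groups, and its log2 change of 1.21 ± 0.0699 (SE, limma adjusted p = 7.0e-09) was 0.81 with coverage in place of FPKM. Reads of class I heavy chains can map to more than 1 of these similar genes, so the split between them is uncertain. How closely the HLA sequences of H1975 match the GRCh37 reference was not checked.

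B2M, the light chain that every class I heavy chain needs (chr15:45003675-45011075), was the most abundant of the 9 genes in both groups. It was at 774, 827 and 868 FPKM in H1975 OR, against 536, 468 and 542 FPKM in parental cells. Its log2 change of 0.68 ± 0.0771 (SE, limma adjusted p = 4.4e-06) was smaller than that of each heavy chain. The 4 heavy chains summed to 628, 711 and 735 FPKM in H1975 OR and to 242, 230 and 251 FPKM in parental cells. B2M over this sum was therefore 1.23, 1.16 and 1.18 in H1975 OR, against 2.21, 2.04 and 2.16 in parental cells. The ratio was lower in each resistant library (exact two-sided permutation test, p = 0.1, the smallest p that 3 against 3 allows). Within the sum, HLA-B made up 70.3% ± 1.14 in H1975 OR and 57.3% ± 1.24 in parental cells (SD, n = 3 each). HLA-E made up 14.6% ± 0.319 in H1975 OR and 22.9% ± 1.05 in parental cells, and HLA-C 11.6% ± 1.23 in H1975 OR and 15.7% ± 0.693 in parental cells. The share of HLA-B was thus the one among these that was higher in H1975 OR, and these shares were not tested.

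Promoter sequence was available for 7 of the 9 genes, from RefSeq on GRCh38.p14, as 250 bases before and 50 after each annotated start. The stretches upstream of the start of HLA-B (chr6:31357220-31357365, minus strand), HLA-C (chr6:31272133-31272278, minus strand), HLA-F (chr6:29723247-29723392, plus strand) and B2M (chr15:44711355-44711480, plus strand) are shown because the product of B2M pairs with each heavy chain and all 4 genes rose. They read 5′ to 3′ along the gene, with motif matches in capitals:
HLA-B: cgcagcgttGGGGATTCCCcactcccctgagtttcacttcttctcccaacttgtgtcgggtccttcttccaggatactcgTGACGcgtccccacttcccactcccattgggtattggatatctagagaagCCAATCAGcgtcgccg
HLA-C: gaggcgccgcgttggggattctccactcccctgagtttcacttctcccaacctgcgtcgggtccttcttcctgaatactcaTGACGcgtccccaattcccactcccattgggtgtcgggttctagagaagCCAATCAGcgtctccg
HLA-F: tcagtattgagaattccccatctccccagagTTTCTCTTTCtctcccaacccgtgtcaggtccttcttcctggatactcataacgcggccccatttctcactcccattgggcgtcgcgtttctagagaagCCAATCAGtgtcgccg
B2M: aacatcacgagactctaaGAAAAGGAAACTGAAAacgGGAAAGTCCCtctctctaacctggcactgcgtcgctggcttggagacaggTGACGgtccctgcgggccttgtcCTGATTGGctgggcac
The capitals mark 4 motifs searched on both strands, with letters chosen after these promoters had been read: CTGATTGG, the inverted CCAAT form of the class I Y box (CCAATCAG on the other strand), TGACG, a core of cyclic AMP response elements, an interferon-stimulated response element written as GAAA, any 2 bases and GAAA, and an NF-kB type site written as GGG, any 2 bases, TT, any base and CC. CTGATTGG was present in all 4 of these promoters with its first base at -57 from the start in HLA-F, -56 in HLA-B and HLA-C and -52 in B2M, whereas 3.97% of 35116 promoters in the table held it. TGACG was found in HLA-B, HLA-C and B2M (24.6% of all promoters) and not in HLA-F. The interferon element, in the letters searched, was found in HLA-F and B2M (3.57%), at 2 overlapping positions in B2M. The NF-kB type site was found in HLA-B and B2M (5.68%). HLA-B and HLA-C, with log2 changes of 1.80 and 1.06, had 86.7% identical columns over the aligned stretch, and HLA-B and HLA-F had 81.6%. Other spellings of the 4 motifs were not searched, so a promoter without a match, such as HLA-B or HLA-C for the interferon element, may hold a variant. A match is a description of letters and not a measured binding site.

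The peptide transporter is made of TAP1 and TAP2, which pump cytosolic peptides into the endoplasmic reticulum. TAP1 (chr6:32812986-32821755) was at 43.9, 48.0 and 45.8 FPKM in H1975 OR, against 21.3, 20.5 and 21.5 FPKM in parental cells. Spread within each group was small beside the gap, and the log2 change was 1.09 ± 0.0602 (SE, limma adjusted p = 4.7e-09). TAP2 (chr6:32789610-32806557) moved least of the 9 genes, at 34.0, 36.8 and 33.2 FPKM in H1975 OR, against 24.6, 26.5 and 25.7 FPKM in parental cells. The groups still did not overlap, and the log2 change was 0.42 ± 0.0629 (SE, limma adjusted p = 4.9e-05). The order of the 2 subunits differed between the groups: TAP1 over TAP2 was 1.29, 1.30 and 1.38 in H1975 OR, against 0.864, 0.773 and 0.837 in parental cells. This ratio was chosen after its values were seen and was not tested. A second ID under the symbol TAP2, whose span covers that of TAP2, was under 1 FPKM in every library.

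TAPBP encodes tapasin, which holds empty class I molecules at the transporter and edits their peptides (chr6:33267471-33282164). It was at 48.6, 52.6 and 56.6 FPKM in H1975 OR, against 26.7, 24.8 and 26.4 FPKM in parental cells. Resistant libraries were all higher, with a log2 change of 0.99 ± 0.0683 (SE, limma adjusted p = 3.7e-08). The stretches before the starts of TAP1 (chr6:32853743-32853888), TAP2 (chr6:32838740-32838847) and TAPBP (chr6:33314079-33314148), all on the minus strand of GRCh38.p14, are shown because each held the interferon element, beside log2 changes of 1.09, 0.42 and 0.99:
TAP1: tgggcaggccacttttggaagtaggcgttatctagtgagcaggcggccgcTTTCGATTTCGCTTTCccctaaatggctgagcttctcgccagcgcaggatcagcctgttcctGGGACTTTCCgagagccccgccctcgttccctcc
TAP2: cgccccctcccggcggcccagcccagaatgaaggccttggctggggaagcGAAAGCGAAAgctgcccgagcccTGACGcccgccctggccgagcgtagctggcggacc
TAPBP: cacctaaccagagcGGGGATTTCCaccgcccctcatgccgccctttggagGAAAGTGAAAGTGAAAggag
The element lay at 2 overlapping positions in TAP1 and TAPBP and at 1 in TAP2. The NF-kB type site was found in TAP1 and TAPBP and not in TAP2, which held TGACG. None of the 3 held CTGATTGG in the window. TAP1 has a second annotated start, and that window held none of the 4 motifs.

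NLRC5, the coactivator of class I promoters (chr16:57023397-57117443), was at 20.9, 23.3 and 23.5 FPKM in H1975 OR, against 10.9, 9.21 and 8.17 FPKM in parental cells. It was the least abundant of the 9 genes in both groups, and its parental libraries were the most spread in relation to their mean. Its log2 change was 1.18 ± 0.0917 (SE, limma adjusted p = 2.2e-07), and 0.76 when the deposited coverage was used in place of FPKM, a measure added once the data had been seen.

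**Figure D2:**
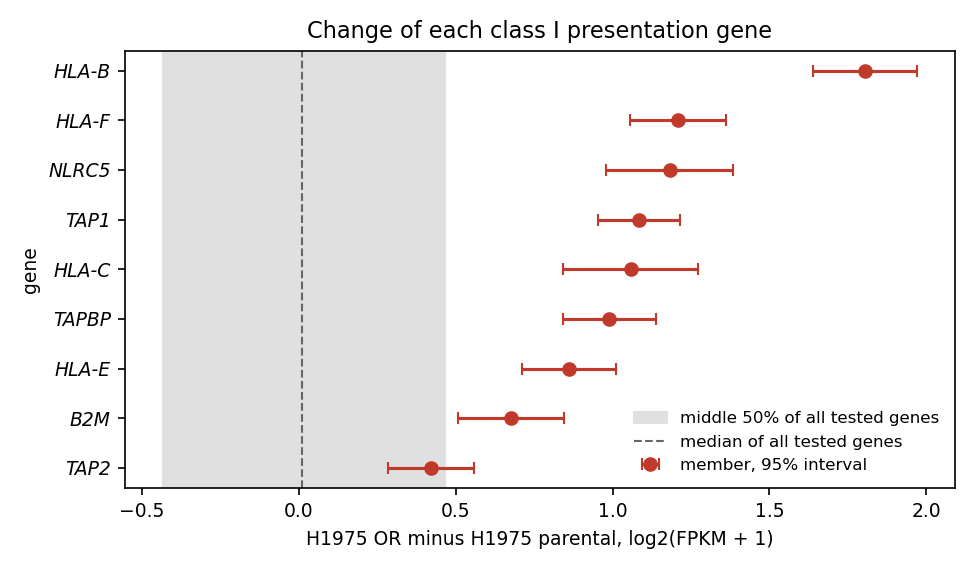
Change of each class I presentation gene, H1975 OR minus parental, on the log2(FPKM + 1) scale with its 95% interval from limma. The grey band holds the middle 50% of all tested genes, from -0.43 to 0.47, and TAP2 is the only member whose point lies inside it.

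Ranked by mean FPKM in H1975 OR, the order was B2M, HLA-B, HLA-E, HLA-C, TAPBP, TAP1, TAP2, HLA-F and NLRC5. The ranges of HLA-E and HLA-C overlapped there, as did those of HLA-F and NLRC5. In parental cells TAP2 came before TAP1 and the order was otherwise the same, with overlapping ranges for TAPBP and TAP2 and for HLA-F and NLRC5. The closest profiles among members, by the root mean square distance between log2(FPKM + 1) values centred on each gene's mean over 6 libraries, were those of HLA-E and TAPBP (0.0706) and of TAP1 and TAPBP (0.0737). The farthest were those of HLA-B and TAP2 (0.698). Among other tested genes, by the same distance, B2M was nearest to EDIL3, an extracellular matrix protein gene (0.0260), and MPZL1, a membrane glycoprotein gene (0.0270). TAP1 was nearest to CARM1, an arginine methyltransferase gene (0.0230), and KLHL42 (0.0290), and NLRC5 to SYCE2, a synaptonemal complex gene (0.0561), and JUND, an AP-1 factor gene (0.0610). These 6 genes had log2 changes of 0.67 to 1.21, but with coverage in place of FPKM MPZL1 had 0.31, beside 0.70 for B2M.

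Of the 9 genes, 7 lie in the MHC block of chromosome 6, from HLA-F to TAPBP over 3.59 Mb (GRCh37, chr6:29690552-33282164). The other tested genes of this block were mostly higher as well: 78 of 91 rose (85.7%) and 5 fell (5.49%), with a median of 0.63 on the log2 scale. Of all tested genes, 39.9% rose and 38.1% fell. Without HLA genes, 76 of 86 rose and 2 fell. Of the 509 tested genes on the rest of chromosome 6, 278 rose (54.6%) and 134 fell, with a median of 0.28. In the 5 Mb after the block, 35 of 50 rose (70%) and 9 fell, with a median of 0.52. In the 5 Mb before it, 27 of 48 rose (56.25%) and 16 fell, with a median of 0.44. Farther away on the chromosome, 216 of 411 rose (52.6%) and 109 fell, with a median of 0.23. Set against these 91 neighbours, HLA-B changed more than all but 5 of them, HLA-F more than all but 18, and TAP1 more than all but 22. TAP2 lay below the block's median, with 64 neighbours above it. The change of HLA-E exceeded the block median by 0.23 and that of HLA-C by 0.43. Whether members differed from their neighbours beyond this count was not tested. B2M and NLRC5 lie elsewhere. Within 1 Mb of B2M, 6 of 17 tested genes rose (35.3%, near the 39.9% of all) and 3 fell (17.6%), with a median of 0.07. Within 1 Mb of NLRC5, 14 of 27 rose (51.9%) and 7 fell (25.9%), with a median of 0.20. On all of chromosome 15, 40.4% of tested genes rose, and on chromosome 16, 43.9%.

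**Figure D3:**
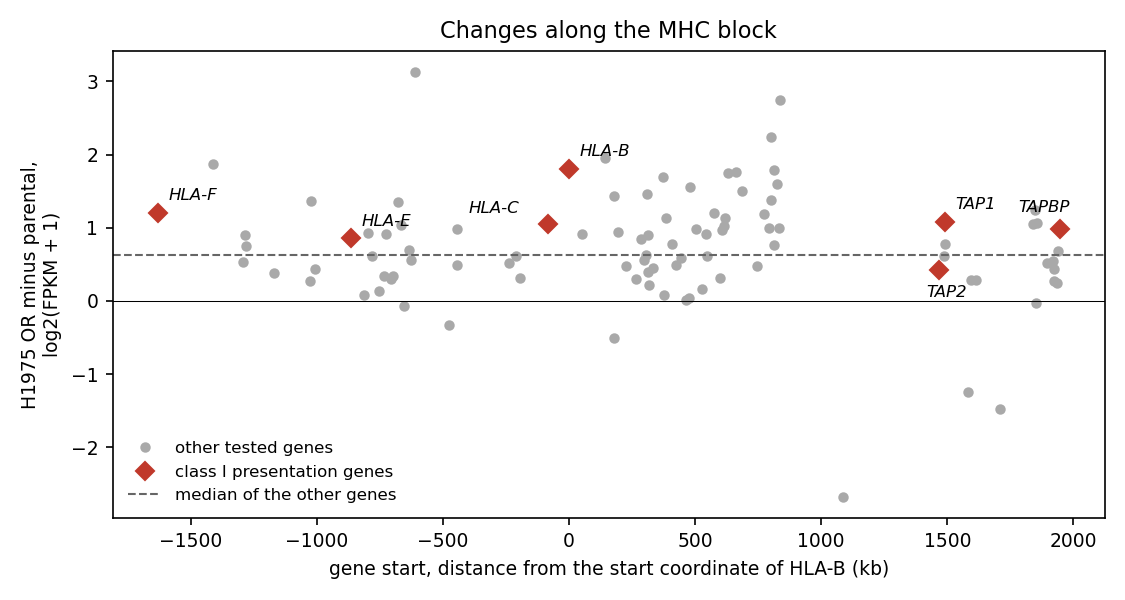
Change of each tested gene of the MHC block, H1975 OR minus parental on the log2(FPKM + 1) scale, against distance in kb from the start coordinate of HLA-B. Red diamonds are class I presentation genes, grey points the 91 other tested genes, and the dashed line marks their median of 0.63.

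Genes that act around the 9 were counted in 6 lists with 60 measured genes, of which 58 were tested. Of these, 30 rose (51.7%, against 39.9% of all tested genes) and 13 fell (22.4%, against 38.1%), with a median of 0.17. The lists were described and not tested as sets.

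Peptide loading and trimming genes came closest to the members, with 6 of 8 higher (75%, against 39.9% of all tested genes), 1 lower and a median of 0.88. ERAP2 and ERAP1, the aminopeptidases that trim peptides inside the endoplasmic reticulum, rose most. ERAP2 (chr5:96211643-96255420) was at 40.2, 39.0 and 40.4 FPKM in H1975 OR, against 11.4, 11.2 and 11.3 FPKM in parental cells (log2 change 1.73 ± 0.0561 SE, limma adjusted p = 3.4e-11). ERAP1 (chr5:96096521-96143803) was at 17.0, 17.3 and 18.0 FPKM in H1975 OR, against 5.73, 6.63 and 6.52 FPKM in parental cells (log2 change 1.34 ± 0.0666 SE, limma adjusted p = 1.7e-09). Their neighbour LNPEP, a trimming enzyme of endosomes (chr5:96271098-96373219), averaged 6.08 ± 0.544 FPKM in H1975 OR and 6.09 ± 0.600 FPKM in parental cells, and the 95% interval of its log2 change was -0.18 to 0.18. The chaperone genes CANX (0.96) and CALR (0.79), and the glycoprotein folding sensor gene UGGT1 (1.03), rose on the log2 scale. TAPBPL, a tapasin-related peptide editor, was the 1 gene of this list that fell, averaging 9.27 ± 0.254 FPKM in H1975 OR and 12.5 ± 1.08 FPKM in parental cells.

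Of the proteasome genes, 4 of 9 were higher (44.4%, near the 39.9% of all tested genes) and 2 lower, with a median of 0.06. PSMB9 and PSMB8, immunoproteasome subunits whose genes stand beside TAP1 and TAP2 in the MHC block, were the ones that rose most. PSMB9 (chr6:32811913-32827362) averaged 104 ± 4.50 FPKM in H1975 OR and 60.2 ± 1.68 FPKM in parental cells, and PSMB8 (chr6:32808494-32812480) averaged 97.7 ± 5.96 FPKM in H1975 OR and 63.1 ± 1.39 FPKM in parental cells. The annotated span of PSMB9 covers that of TAP1 on the opposite strand, and whether counting used strand is not given in the sources used here, so reads of the overlap may have gone to either. PSMB10, the third immunoproteasome subunit, lies on chromosome 16 and fell, averaging 19.1 ± 1.63 FPKM in H1975 OR and 30.3 ± 1.57 FPKM in parental cells (log2 change -0.64 ± 0.0715 SE, limma adjusted p = 3.6e-06). PSME3, a nuclear proteasome activator subunit, also fell (-0.84). PSME2, a subunit of the activator induced by interferon, had a log2 change of 0.04 with a 95% interval of -0.10 to 0.19. Of 6 cytosolic peptidase genes 2 rose (33.3%, below the 39.9% of all tested genes), NRD1 (0.26) and TPP2 (0.19), and 2 fell, NPEPPS (-0.69) and BLMH (-0.14), with a median of 0.06. The call of BLMH (limma adjusted p = 0.048) was lost when resistant replicate 1 or 3 or any of the 3 parental replicates was left out, with limma adjusted p up to 0.13.

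Among promoter factors and interferon input, 10 of 18 genes rose (55.6%, against 39.9% of all tested genes) and 4 fell (22.2%, against 38.1%), with a median of 0.19. Of the RFX complex, which binds the X box of class I and class II promoters, RFXANK averaged 35.4 ± 2.66 FPKM in H1975 OR and 18.8 ± 0.736 FPKM in parental cells, and RFX5 averaged 29.1 ± 1.13 FPKM in H1975 OR and 15.8 ± 0.125 FPKM in parental cells. RFXAP, the third subunit, was lower, at 2.07 ± 0.203 FPKM in H1975 OR and 2.65 ± 0.322 FPKM in parental cells. NFYB (0.74) and NFYA (0.67), subunits of the Y box factor, rose on the log2 scale. IFNGR1, a chain of the interferon gamma receptor, averaged 26.6 ± 0.891 FPKM in H1975 OR and 14.0 ± 0.669 FPKM in parental cells. ATF1, a CREB family factor, fell (-0.56). The NF-kB subunit genes NFKB1 (0.50) and RELA (0.49) rose, and IRF1, an interferon response factor that acts on class I promoters, had the small change of 0.15 (limma adjusted p = 0.047).

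Class I-like proteins and ligands of the activating receptor on natural killer cells counted 7 higher (58.3%, against 39.9% of all tested genes) and 2 lower (16.7%, against 38.1%) of 12 tested, with a median of 0.37. MICB, a stress-induced ligand of that receptor and a gene of the MHC block (chr6:31462658-31478901), was at 14.8, 15.8 and 16.7 FPKM in H1975 OR, against 3.19, 3.63 and 3.15 FPKM in parental cells. Its log2 change of 1.95 ± 0.0703 (SE, limma adjusted p = 9.0e-11) was 1.25 with coverage in place of FPKM, where that of HLA-B was 1.80. ULBP1, another such ligand on the long arm of chromosome 6 (chr6:150285143-150294846), averaged 3.92 ± 0.650 FPKM in H1975 OR and 0.514 ± 0.119 FPKM in parental cells. RAET1E, of the same ligand family (chr6:150204511-150219238), fell, averaging 0.662 ± 0.182 FPKM in H1975 OR and 2.98 ± 0.314 FPKM in parental cells. AZGP1, a secreted class I-like protein, fell most (-2.12). It averaged 0.910 ± 0.191 FPKM in H1975 OR and 7.32 ± 0.757 FPKM in parental cells. ULBP1 in parental cells, and RAET1E and AZGP1 in H1975 OR, averaged under 1 FPKM. With a filter of at least 1 FPKM in both groups they were not tested, so both falls of this list dropped out. HLA-G, a heavy chain known from the placenta, was at or under 0.0562 FPKM in every library and was not tested. In the list of surface turnover, 1 of 5 genes rose and 2 fell, too few to read against the 39.9% and 38.1% of all tested genes, with a median of -0.09. KIAA0247, an older symbol of SUSD6, a membrane protein that directs class I molecules to degradation, rose (0.98). The ubiquitin ligase gene WWP2, which acts with it, fell (-0.44). IRF2BP2, counted in this list though no role in surface turnover is shown here, also fell (-0.44). TMEM127 had a change of -0.09 and no call.

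**Figure D4:**
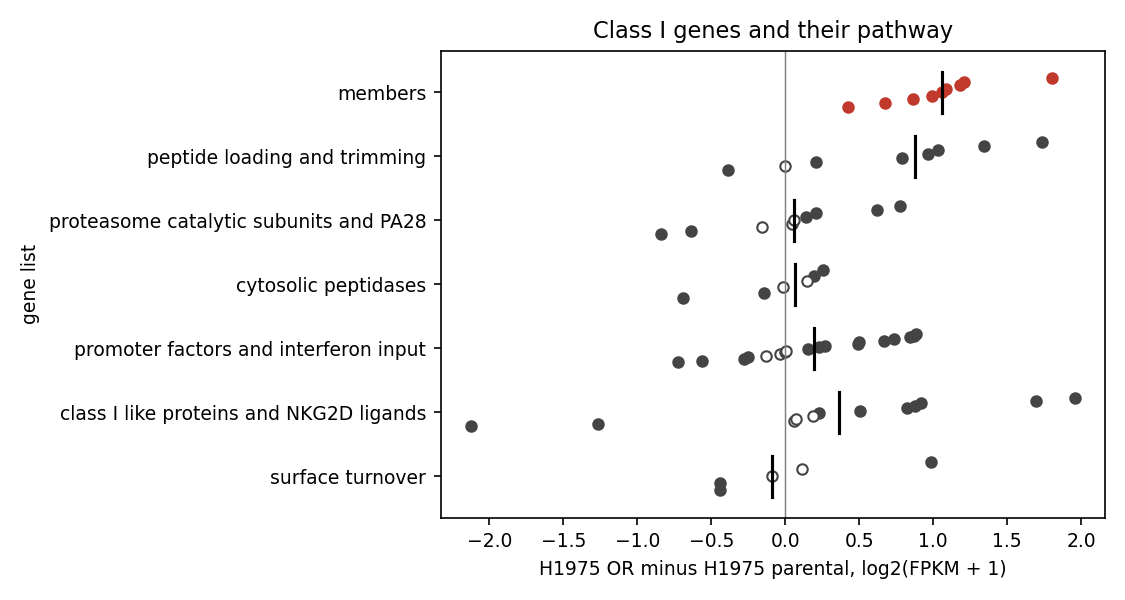
Change of each tested gene by list, H1975 OR minus parental on the log2(FPKM + 1) scale. Filled points passed an FDR of 0.05, open points did not, and vertical bars give list medians, from 1.06 for the members in red to -0.09 for surface turnover.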

How the data were processed

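RNA-seq libraries of 3 H1975 OR and 3 parental H1975 samples were grouped by their titles. The build is GRCh37, per the submitters' processing notes, where DESeq is also named without a version. The aligner, quantifier, annotation release and strand setting are not given in the sources used. The authors deposited FPKM in a series table and, per the file headers, coverage (a signal per base), FPKM and TPM in library files, whose TPM summed to 1000000. Between 1 and 4 IDs per library differed between the 2 sources. Depth in reads is unknown, so no interval for counting error is given. Between 11410 and 11555 genes reached 1 FPKM in a library, and rank correlations were 0.995 to 0.996 within groups and 0.846 to 0.854 between them.

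Of the 20356 genes, the 12107 whose average reached 1 FPKM in H1975 OR or in parental cells entered a limma fit (version 3.58.1, R 4.3.3) of log2(FPKM + 1) on group alone. Moderation was robust and followed the intensity trend, tests were two-sided, and p-values were adjusted by Benjamini-Hochberg over all genes fitted. This scale understates changes of low genes. Adjusted p-values are limma's. Ratios were tested by exact permutation in scipy 1.17.1. The fit was also run on simulated data with normal noise and few changed genes. These data hold many changes, so that run does not vouch for the share of genes called. The members and lists were chosen with earlier results of these data known. Named genes were all members, the 2 largest called changes per list and direction, and the 2 nearest profiles to B2M, TAP1 and NLRC5. 1 gene under this rule is not reported here. Other genes were named after their values were seen. Alternatives changed the pseudocount, filter, scaling, moderation, replicates, IDs per symbol and measure.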

Additional observations from a re-analysis of the deposited data

How the results depend on the processing

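All 9 genes stayed higher in H1975 OR and past an FDR of 0.05 in limma in all 17 alternatives, with adjusted p up to 0.00069. The log2 changes ranged from 1.77 to 1.94 for HLA-B, 0.93 to 1.15 for HLA-C, 0.82 to 0.96 for HLA-E, 0.81 to 1.29 for HLA-F, 0.61 to 0.84 for B2M, 1.05 to 1.14 for TAP1, 0.38 to 0.46 for TAP2, 0.94 to 1.04 for TAPBP and 0.76 to 1.28 for NLRC5. The lowest values of HLA-F and NLRC5 came from coverage in place of FPKM, and the cause was not tested. In the wider lists, 25 to 33 genes rose and 11 to 15 fell. B2M over the summed heavy chains fell by 0.944, and by 0.907 to 0.993 without 1 replicate and by 1.47 with HLA-B and HLA-C only. No scaling moved the median of all tested genes by 0.1. Same-numbered libraries deviated from their group means with correlations of -0.14, 0.08 and 0.10, so the numbers were not taken to pair them. With the replicate block, 9 of the 9 genes were still called, as were 4805 higher and 4617 lower genes in all. Of 28 other genes picked by the naming rule, only BLMH lost its call there (limma adjusted p = 0.068). BLMH also lost it in 7 other alternatives, while the other 27 of these genes kept theirs in each alternative that tested them. Genes named outside that rule, such as IRF1, were not followed through the alternatives. Without knowing reads, what depth limits cannot be stated.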

Other observations

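Class I pseudogenes, which share sequence with the heavy chains, were mostly low. HLA-H was at 8.81, 9.37 and 10.6 FPKM in H1975 OR, against 3.37, 3.31 and 3.87 FPKM in parental cells. HLA-L averaged 0.949 ± 0.0730 FPKM in H1975 OR and 0.567 ± 0.153 FPKM in parental cells (SD, n = 3 each). HLA-V went the other way, at 0.0501, 0.139 and 0.0706 FPKM in H1975 OR, against 0.628, 0.435 and 0.731 FPKM in parental cells. These pseudogenes were not tested, and they were chosen after their values were seen.

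Of the transcripts annotated across the members on the opposite strand, HLA-F-AS1 averaged 2.72 ± 0.542 FPKM in H1975 OR and 1.37 ± 0.0884 FPKM in parental cells, beside HLA-F at 24.3 FPKM in H1975 OR and 9.99 FPKM in parental cells. TAPSAR1, which overlaps TAP1, averaged 5.82 ± 0.125 FPKM in H1975 OR and 3.76 ± 0.173 FPKM in parental cells. The use of strand in counting is not given in the sources used here, so part of these values may come from the gene on the other strand.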
